A study of Mactra quadrangularis with 9 samples.

Results

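The alternative oxidase gene (AOX, Mve07G002200) of the surf clam *Mactra quadrangularis* was followed across gill libraries from 3 levels of dissolved oxygen. The gene was taken by its identifier. It was the 1 gene among 24722 in the expression table described as an alternative oxidase, and it was among the 15397 genes tested, those with a mean of at least 1 FPKM, a level corrected for sequencing depth and gene length, over the 9 libraries. The table places AOX on chromosome 7 from 6170279 to 6180507, on the plus strand, a span of 10229 bp. No genome build is named in the sources used here, and the exons of the gene were not analysed here. Its annotation terms are mitochondrion, plasma membrane, alternative oxidase activity, alternative respiration and cellular response to oxidative stress.

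AOX is a di-iron enzyme of the inner mitochondrial membrane. It takes electrons from ubiquinol, the carrier that complexes I and II fill, and passes them straight to oxygen, so that complex III, cytochrome c and complex IV are bypassed and no proton is pumped on this branch. In plants, fungi and many marine invertebrates the enzyme is known for keeping electrons moving when the cytochrome branch is blocked, for example by cyanide or sulfide, and for limiting the escape of electrons to superoxide. Vertebrates lack it.

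The study, whose text calls the animal *Mactra veneriformis*, asked how gill responds to low oxygen. Poly(A) RNA was sequenced from gill taken after 24 h at 2 mg/L, at 4 mg/L or at 7.5 mg/L, the control, with 3 libraries in each group and 9 in all. Temperature was 20 ± 1 °C and salinity 27 in all groups, each parallel held 40 clams, and none was fed. Per the study's text, nitrogen was passed through film-covered water for both hypoxic groups and control water was aerated, each level being held within 0.2 mg/L. No genotype, strain or age is given for any group. Nothing in the labels ties a library to its own clam or gives the number of clams behind it. The p-values therefore measure the spread between libraries alone, and part or all of that spread may be technical. Totals ran from 26994566 to 32246147 counts in a library. Markers of the ciliated gill epithelium were expressed, 53 of 56 cilia genes being high enough to test. Deposited FPKM of the list summed to 1849 to 1895 FPKM at 2 mg/L, 1970 to 2046 FPKM at 4 mg/L and 2282 to 2335 FPKM at 7.5 mg/L. These sums are corrected for depth and gene length only, and calls for the list are given below.

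AOX transcripts were more abundant at each lower level of oxygen. AOX stood at 122, 125 and 128 FPKM in the 2 mg/L libraries, at 72.33, 62.35 and 69.97 FPKM in the 4 mg/L libraries and at 33.2, 31.4 and 30.2 FPKM in the 7.5 mg/L libraries. Every library at 2 mg/L was above every library at 4 mg/L, which in turn was above every control library. Over all tested genes 4.99% were called higher in all 3 comparisons, and how many separate by library in this way was not counted. Behind the AOX levels stood 6781, 6949 and 6188 raw counts at 2 mg/L. There were 4044, 3493 and 3961 counts in the 4 mg/L libraries, and the control libraries held 1587, 1773 and 1725. Counting error alone is therefore small, 1.23% of the level at 2 mg/L, 1.62% at 4 mg/L and 2.43% at 7.5 mg/L, if counts are taken as independent fragments. Scaled to library size with TMM factors, the level was 240 ± 8.01 CPM (scaled counts) at 2 mg/L, 119 ± 9.29 CPM at 4 mg/L and 52.8 ± 2.58 CPM at 7.5 mg/L (mean ± SD, n = 3 each). The spread between libraries was 3.35%, 7.81% and 4.88% of the mean in that order. Replicate 2 was the low library at 4 mg/L, at 108 CPM beside 125 and 124 CPM. In bulk tissue, more RNA per cell and a larger share of the cells that carry a transcript cannot be told apart, so a shift in cell makeup is not separated from a change within cells.

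**Figure D1:**
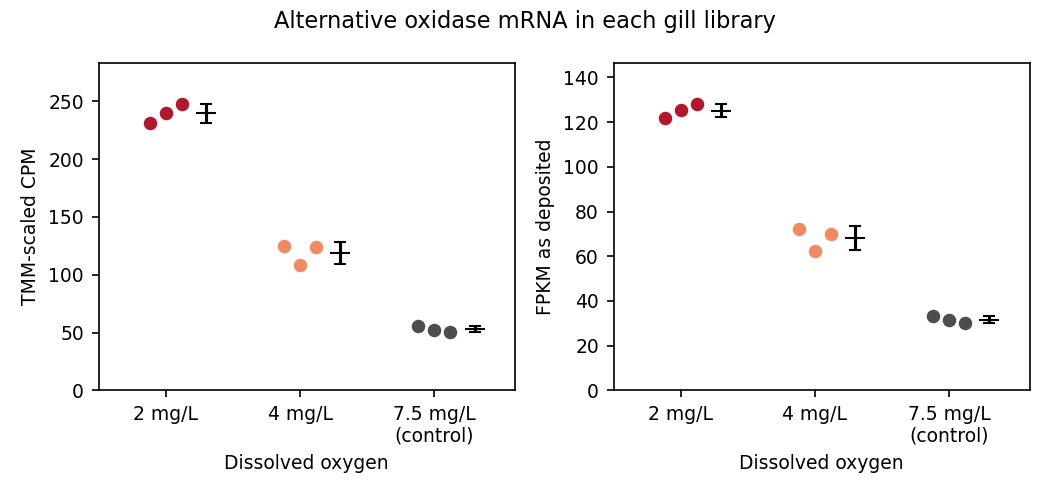
AOX level in each of the 9 gill libraries as TMM-scaled CPM (left panel) and as deposited FPKM (right panel), with dissolved oxygen on the horizontal axis; points are libraries and the black bar beside them is the mean ± SD of 3. The 3 groups are separate on both scales, at 122 to 128 FPKM for 2 mg/L, 62.35 to 72.33 FPKM for 4 mg/L and 30.2 to 33.2 FPKM for 7.5 mg/L.

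At 2 mg/L AOX was 4.54-fold higher than at 7.5 mg/L, a log2 fold change of 2.18 ± 0.06 (SE), with an adjusted p = 1e-14 by edgeR's quasi-likelihood test (Benjamini-Hochberg, all tested genes). A gene is called here when its adjusted p is below 0.05, whatever its fold, and this comparison called 31.5% of tested genes higher and 32.0% lower. A call alone is thus common in these libraries. By size, 694 of the 4847 genes called higher (14.3%) had a larger fold than AOX.

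At 4 mg/L AOX was 2.25-fold higher than at 7.5 mg/L, a log2 fold change of 1.17 ± 0.06 (edgeR adjusted p = 2.41e-11). In this comparison 35.4% of tested genes were called higher and 34.5% lower, and 2385 of the 5447 called higher (43.8%) moved further than AOX. Between the hypoxic groups, 2 mg/L against 4 mg/L, AOX was 2.02-fold higher, a log2 fold change of 1.01 ± 0.06 (edgeR adjusted p = 1.27e-10). Here 31.6% of tested genes were called higher and 32.1% lower, and 2119 of the 4871 called higher (43.5%) had a larger fold. The comparisons share libraries, so their values stand side by side and are not independent, and whether the difference between 4 and 7.5 mg/L was larger than that between 2 and 4 mg/L was not tested.

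These sizes depend in part on scaling. TMM factors ran from 0.918 to 0.935 at 2 mg/L, from 1.00 to 1.02 at 4 mg/L and from 1.06 to 1.07 at 7.5 mg/L, so scaling by total counts alone gives smaller AOX folds of 3.95 for 2 against 7.5 mg/L, 2.15 for 4 against 7.5 mg/L and 1.84 for 2 against 4 mg/L. That choice also moves the median log2 fold change of all tested genes, to -0.23, -0.07 and -0.16 in the same order, against -0.03, -0.0047 and -0.02 with TMM. Under total-count scaling 35.9%, 46.6% and 40.2% of the called genes were higher in these comparisons, against 49.6%, 50.6% and 49.6% with TMM. Relative to the median tested gene, AOX was higher by 2.21 (2 against 7.5 mg/L), 1.18 (4 against 7.5 mg/L) and 1.03 (2 against 4 mg/L) on the log2 scale under total-count scaling. The deposited FPKM gave ratios of means of 3.96, 2.16 and 1.83 in the same order.

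AOX is not a rare transcript in this gill. Among genes with a value in a library, ordered by FPKM, it ranked 567, 557 and 538 at 2 mg/L, where 2.64% to 2.74% of genes stood above it. At 4 mg/L it ranked 960, 1096 and 976, with 4.60% to 5.22% of genes above it, and at 7.5 mg/L it ranked 1844, 1966 and 2022, with 9.07% to 9.80% above it. The ranks do not overlap between groups, and how often this holds for other genes was not counted.

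Summed levels of markers of other cell types also differed between the groups, and markers were called in both directions. The sums are deposited FPKM without TMM factors, while the calls use TMM. On log2(FPKM + 0.1) the median tested gene was at -0.225 at 2 against 7.5 mg/L and at -0.066 at 4 against 7.5 mg/L. With TMM it was at -0.032 and -0.00471, so part of a lower sum can come from the scale. Over all tested genes 31.5% were called higher and 32.0% lower at 2 against 7.5 mg/L. At 4 against 7.5 mg/L 35.4% were called higher and 34.5% lower, and the marker counts stand beside these shares. Haemocyte markers summed to 2026 to 2048 FPKM at 2 mg/L, 1433 to 1482 FPKM at 4 mg/L and 1032 to 1048 FPKM at 7.5 mg/L, the same order as AOX. Of 92 genes matched to that list 42 were tested, and 15 rose, 18 fell and 9 did not pass at 2 against 7.5 mg/L, while 17 rose, 14 fell and 11 did not pass at 4 against 7.5 mg/L. One gene, an integrin beta-like protein A (Mve02G003930), carries much of that sum, and without it the sums were 906 to 923 FPKM at 2 mg/L, 737 to 787 FPKM at 4 mg/L and 711 to 733 FPKM at 7.5 mg/L. Muscle markers summed to 1976 to 2459 FPKM at 2 mg/L, 587 to 625 FPKM at 4 mg/L and 610 to 628 FPKM at 7.5 mg/L, so the sum was highest at 2 mg/L. Of the 11 tested, 8 rose, 1 fell and 2 did not pass at 2 against 7.5 mg/L, and 6 rose, 3 fell and 2 did not pass at 4 against 7.5 mg/L. Digestive gland markers summed to 212 to 213 FPKM at 2 mg/L, 256 to 277 FPKM at 4 mg/L and 215 to 230 FPKM at 7.5 mg/L. Of 15 tested, 4 rose, 9 fell and 2 did not pass at 2 against 7.5 mg/L, and 8 rose, 1 fell and 6 did not pass at 4 against 7.5 mg/L. Mantle and shell markers were at 122 to 135, 112 to 126 and 192 to 206 FPKM, and neuron markers at 468 to 476, 654 to 667 and 594 to 599 FPKM, for 2, 4 and 7.5 mg/L. Of 12 mantle and shell markers tested, 4 rose and 4 fell at 2 against 7.5 mg/L, and 5 rose and 3 fell at 4 against 7.5 mg/L. Of 71 neuron markers tested, 17 rose and 26 fell at 2 against 7.5 mg/L, and 24 rose and 30 fell at 4 against 7.5 mg/L. Of the 53 cilia genes tested, 15 rose and 21 fell at 2 against 7.5 mg/L, and 9 rose and 27 fell at 4 against 7.5 mg/L. Their median log2 fold changes with TMM were -0.0947 and -0.164 in these comparisons. No marker of these lists was at 0 in all 9 libraries, and the part of any of these cell types in the AOX level was not tested.

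AOX competes with the cytochrome branch, complexes III and IV with cytochrome c, for ubiquinol. Subunits of complexes I to IV together with cytochrome c, matched by their descriptions, gave 36 genes, of which 35 were tested. Complexes I and II, which fill the pool and lie outside that branch, hold 19 and 3 of the 35. Over all tested genes 31.5% were called higher and 32.0% lower at 2 against 7.5 mg/L. The shares were 35.4% and 34.5% at 4 against 7.5 mg/L, and 31.6% and 32.1% at 2 against 4 mg/L. Counts of these and later lists stand beside those shares. At 2 against 7.5 mg/L 8 rose, 5 fell and 22 did not pass, with a median log2 fold change of 0.05, where the tested genes as a whole had a median of -0.03. At 4 against 7.5 mg/L 10 rose, 11 fell and 14 did not pass (median 0.03), and at 2 against 4 mg/L 8 rose, 4 fell and 23 did not pass (median 0.02). With total-count scaling the counts turn downward, to 3 risen and 20 fallen at 2 against 7.5 mg/L, 6 and 12 at 4 against 7.5 mg/L, and 2 and 18 at 2 against 4 mg/L. The highest member was cytochrome c oxidase subunit 5A (Mve10G004760), a nuclear-encoded part of complex IV, at a log2 fold change of 0.50 at 2 against 7.5 mg/L and 0.53 at 4 against 7.5 mg/L. At 2 against 4 mg/L it was subunit 6 of the cytochrome b-c1 complex (complex III, Mve03G017690), at 0.64. Of all other tested genes, 4.57% had a larger log2 fold change than AOX at 2 against 7.5 mg/L. The share was 15.7% at 4 against 7.5 mg/L and 14.1% at 2 against 4 mg/L. In each of 19 settings of scaling, filter, test or libraries, which refit the same data, no gene of the chain reached AOX. AOX lay above the highest of them by 1.64 to 1.73 at 2 against 7.5 mg/L, by 0.58 to 0.70 at 4 against 7.5 mg/L and by 0.32 to 0.42 at 2 against 4 mg/L, on the log2 scale.

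**Figure D2:**
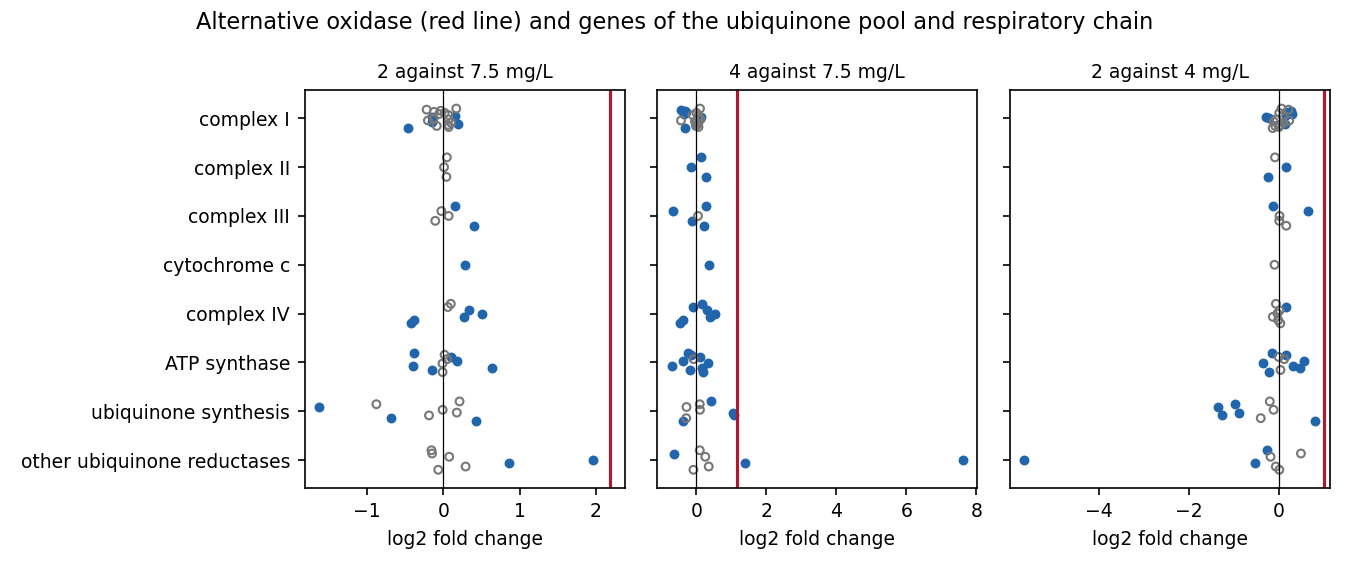
Log2 fold change of each tested gene of the respiratory chain and ubiquinone pool, 1 row per group of genes and 1 panel per comparison; filled points passed the edgeR test, open points did not, and the red line marks AOX. At 2 against 7.5 mg/L all points lie left of AOX at 2.18, and the points right of the line at 4 against 7.5 mg/L are proline dehydrogenase 2 and the electron transfer flavoprotein oxidoreductase.

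By complex, the NADH dehydrogenase, complex I, which feeds electrons from NADH into ubiquinone, had 2 risen and 3 fallen of 19 at 2 against 7.5 mg/L, 1 and 5 at 4 against 7.5 mg/L, and 5 and 2 at 2 against 4 mg/L. Its largest fall at 2 against 7.5 mg/L was NADH dehydrogenase 1 beta subcomplex subunit 3 (Mve19G004410), at -0.46. Complex II, succinate dehydrogenase, the other large entry to the pool, had 3 tested genes and no call at 2 against 7.5 mg/L, with log2 fold changes of 0.05 for the iron-sulfur subunit (Mve04G003030), 0.01 for the cytochrome b560 subunit (Mve07G004420) and 0.04 for the small cytochrome b subunit (Mve13G008960). Under total-count scaling these are -0.15, -0.19 and -0.16 and pass the test. At 4 against 7.5 mg/L 2 of the complex II genes rose and 1 fell, and at 2 against 4 mg/L 1 rose, 1 fell and 1 did not pass. Complex III, which takes the electrons that AOX would otherwise take, had 2 risen and none fallen of 5 at 2 against 7.5 mg/L, 2 and 2 at 4 against 7.5 mg/L, and 1 and 1 at 2 against 4 mg/L. Its Rieske iron-sulfur subunit (Mve06G013720), the most abundant of them, did not pass in any comparison, and under total-count scaling it is -0.13 at 2 against 7.5 mg/L and -0.11 at 2 against 4 mg/L and passes. Cytochrome c (Mve12G001070), the carrier between complexes III and IV, rose at 2 against 7.5 mg/L (0.28) and at 4 against 7.5 mg/L (0.37) and did not pass between 2 and 4 mg/L (-0.09). The call for 2 against 7.5 mg/L ends under total-count scaling, at 0.08.

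Complex IV, cytochrome c oxidase, is the other enzyme that hands electrons to oxygen. At 2 against 7.5 mg/L 3 of its 7 genes rose and 2 fell, at 4 against 7.5 mg/L 4 rose and 3 fell, and at 2 against 4 mg/L 1 rose and none fell. The genes that fell at 2 against 7.5 mg/L were both entries for the mitochondrially encoded subunit I, at -0.38 (Mveptg000504l_1G000010) and -0.42 (Mveptg000504l_1G000020), which share a description and may share reads. The 5 nuclear subunits had a geometric mean of 231 ± 8.57 FPKM at 2 mg/L, 255 ± 2.83 FPKM at 4 mg/L and 222 ± 4.15 FPKM at 7.5 mg/L. Libraries at 2 mg/L (221 to 238 FPKM) and 7.5 mg/L (218 to 226 FPKM) overlapped. Those at 4 mg/L (252 to 258 FPKM) were above both. These FPKM carry no TMM factors, unlike the calls above, and the overlap was not examined with TMM. On log2(FPKM + 0.1) the median tested gene was at -0.225 at 2 against 7.5 mg/L, against -0.032 with TMM.

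Relative to the 5 nuclear complex IV subunits, the RNA level of AOX kept its order over the groups. Both subunit I entries are left out of this ratio. With them the 7 complex IV genes summed to 6502 to 6584 FPKM at 2 mg/L. The sums were 6969 to 7234 FPKM at 4 mg/L and 8969 to 9371 FPKM at 7.5 mg/L. Per 100 FPKM of the nuclear geometric mean the 2 mg/L libraries held 55.1, 52.8 and 54.8 FPKM of AOX. The 4 mg/L libraries held 28.7, 24.2 and 27.5 FPKM, and the 7.5 mg/L libraries 15.2, 14.2 and 13.35 FPKM. The means were 54.2 ± 1.25, 26.8 ± 2.34 and 14.25 ± 0.931 FPKM (SD, n = 3 each). Per 100 FPKM of cytochrome c, AOX stood at 67.7 ± 4.53 FPKM at 2 mg/L, 31.55 ± 2.17 FPKM at 4 mg/L and 18.1 ± 1.24 FPKM at 7.5 mg/L. A ratio within a library does not depend on library scaling, and it is a ratio of transcripts, not of enzyme or of electron flow. These ratios are given as a description, with no test.

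**Figure D3:**
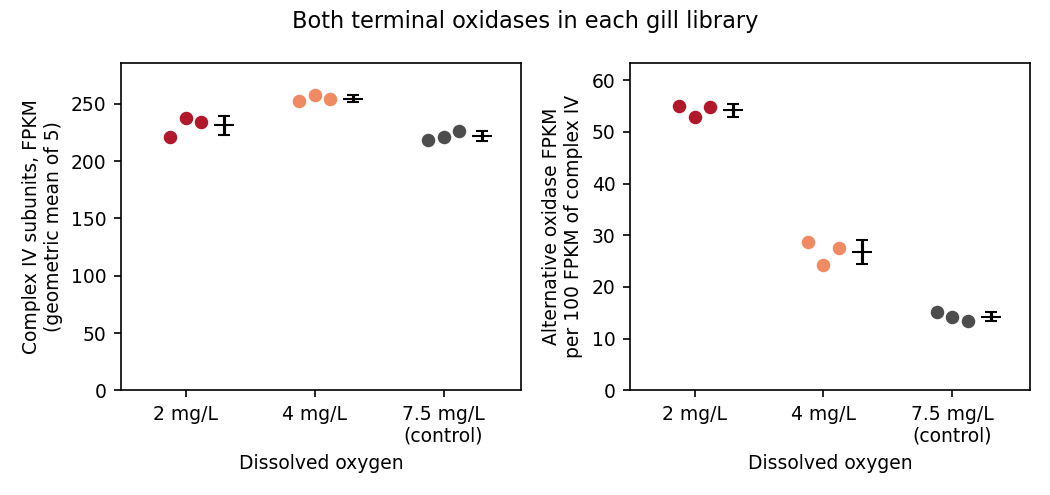
Geometric mean FPKM of the 5 nuclear complex IV subunits (left panel) and AOX FPKM per 100 FPKM of complex IV (right panel) in each library, by dissolved oxygen; points are libraries and the black bar is the mean ± SD of 3. Complex IV here means these nuclear subunits, without both subunit I entries. Their geometric mean, in FPKM without TMM factors, lies between 218 and 258 FPKM in all 9 libraries. The ratio of AOX to it is 52.8 to 55.1 at 2 mg/L, 24.2 to 28.7 at 4 mg/L and 13.35 to 15.2 at 7.5 mg/L.

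The ATP synthase, which uses the proton gradient that the AOX branch does not build, had 3 risen and 3 fallen of 10 genes at 2 against 7.5 mg/L, 4 and 5 at 4 against 7.5 mg/L, and 4 and 3 at 2 against 4 mg/L. Its subunit s (Mve10G004220) had the largest rise at 2 against 7.5 mg/L (0.63) and its gamma subunit (Mve08G010770) the largest fall (-0.39). An uncoupling protein 4-like carrier (Mve01G008730), of a family that lets protons back across the membrane, fell at 2 against 7.5 mg/L (21.7 and 29.0 CPM, log2 fold change -0.42) and rose at 4 against 7.5 mg/L (34.6 and 29.0 CPM, 0.26). The rise did not pass under total-count scaling (0.19) or without any 1 of 4 libraries, replicates 1 and 3 of the 4 mg/L and of the 7.5 mg/L group. This carrier was the 1 tested gene of 4 matched for proton leak and nucleotide exchange.

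Other enzymes that reduce ubiquinone, and so could feed AOX, moved in single genes. Of 9 matched 7 were tested, and 2 rose and none fell at 2 against 7.5 mg/L, 2 rose and 1 fell at 4 against 7.5 mg/L, and none rose and 3 fell at 2 against 4 mg/L. The electron transfer flavoprotein-ubiquinone oxidoreductase (Mve09G006450), which passes on electrons from fatty acid and amino acid oxidation, stood at 25.8 CPM at 2 mg/L, 37.3 CPM at 4 mg/L and 14.2 CPM at 7.5 mg/L. It rose in both hypoxic groups relative to 7.5 mg/L (log2 0.86 at 2 mg/L and 1.40 at 4 mg/L) and was lower at 2 than at 4 mg/L (-0.53), an order that differs from that of AOX. A probable proline dehydrogenase 2 (Mve08G010350) was at 0.50 CPM at 2 mg/L, 24.95 CPM at 4 mg/L and 0.118 CPM at 7.5 mg/L, so it was high at 4 mg/L. Sulfide:quinone oxidoreductase (Mve02G004270), which starts the breakdown of sulfide, a blocker of complex IV, did not pass at 2 against 7.5 mg/L (-0.15) or at 4 against 7.5 mg/L (0.10) and fell at 2 against 4 mg/L (-0.25), a call that ends without replicate 1 at 2 mg/L. The sulfide oxidation list as a whole had 3 risen and 2 fallen of 8 at 2 against 7.5 mg/L, 5 and 1 at 4 against 7.5 mg/L, and 1 and 4 at 2 against 4 mg/L. At 2 against 7.5 mg/L its largest rise was a thiosulfate sulfurtransferase-like gene (Mve14G012330), at 4.89, a larger value than that of AOX. That gene averaged 6.47 CPM at 2 mg/L, 0.559 CPM at 4 mg/L and 0.206 CPM at 7.5 mg/L, with control counts of 0, 0 and 21. The largest fall was a sulfite oxidase-like gene (Mve07G010800), at -0.57.

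Genes that make ubiquinone had no common direction at 2 mg/L. Of 8 tested, 1 rose and 2 fell at 2 against 7.5 mg/L, 3 rose and 1 fell at 4 against 7.5 mg/L, and 1 rose and 4 fell at 2 against 4 mg/L. COQ9 (Mve06G005710), a lipid-binding factor of ubiquinone synthesis, was at 20.5 CPM at 2 mg/L, 37.8 CPM at 4 mg/L and 18.1 CPM at 7.5 mg/L and rose at 4 mg/L relative to 7.5 mg/L (1.06). A COQ8B-like kinase (Mve02G008530) had the largest fall at 2 against 7.5 mg/L (-1.62) and COQ4 (Mve14G004260) the largest rise (0.43), a call that ends under total-count scaling (0.23) and without replicate 1 or 3 at 2 mg/L or replicate 1 or 2 at 7.5 mg/L.

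Among 16 factors that assemble the respiratory complexes, 6 rose and 2 fell at 2 against 7.5 mg/L, 5 and 2 at 4 against 7.5 mg/L, and 4 and 4 at 2 against 4 mg/L. The copper chaperone of cytochrome c oxidase (Mve05G015540), which delivers copper for complex IV, was called higher in each comparison, as AOX was. Its level was 7.70 CPM at 2 mg/L, 4.61 CPM at 4 mg/L and 2.28 CPM at 7.5 mg/L, with log2 fold changes of 1.76 for 2 against 7.5 mg/L, 1.02 for 4 against 7.5 mg/L and 0.74 for 2 against 4 mg/L (edgeR adjusted p = 7.18e-06, 0.00119 and 0.00963). Assembly factor 4 (Mve07G013400) had the largest fall at 2 against 7.5 mg/L (-1.78) at a low level of 0.263 CPM at 2 mg/L and 0.902 CPM at 7.5 mg/L, and this call ends without replicate 1 or 2 at 2 mg/L or replicate 1 at 7.5 mg/L.

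AOX carries the annotation for the cellular response to oxidative stress, and 26 other genes share it, of which 23 were tested. Of these 9 rose and 9 fell at 2 against 7.5 mg/L, 12 rose and 9 fell at 4 against 7.5 mg/L, and 2 rose and 8 fell at 2 against 4 mg/L. Enzymes that remove superoxide and peroxide, the products AOX is known to limit, had 3 risen and 4 fallen of 10 at 2 against 7.5 mg/L, 4 and 4 at 4 against 7.5 mg/L, and 2 and 3 at 2 against 4 mg/L. The most abundant of them, an extracellular Cu/Zn superoxide dismutase (Mve10G006350), fell slightly at 2 against 7.5 mg/L (-0.15) and at 4 against 7.5 mg/L (-0.16), calls that end without control replicate 3 and, for 2 against 7.5 mg/L, without replicate 1 or 3 at 2 mg/L, or, for 4 against 7.5 mg/L, without replicate 1 or 2 at 4 mg/L. Another gene of that name (Mve05G004020) was at 88.2 CPM at 2 mg/L against 0.623 CPM at 4 mg/L and 0.133 CPM at 7.5 mg/L. Mitochondrial chaperones and proteases had 4 risen and 2 fallen of 9 at 2 against 7.5 mg/L, 6 and 1 at 4 against 7.5 mg/L, and 1 and 7 at 2 against 4 mg/L. Mortalin-2 (Mve13G010080), the mitochondrial HSP70, led the rises at 232 CPM at 2 mg/L, 280 CPM at 4 mg/L and 120 CPM at 7.5 mg/L.

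The table annotates 654 other genes to the mitochondrion, 526 of them tested. At 2 against 7.5 mg/L 125 rose, 162 fell and 239 did not pass, and 11 (2.09%) had a larger log2 fold change than AOX, against 4.57% of all other tested genes. Of those 11, 1 had a mean level at or above that of AOX over the 9 libraries, the NF-kappa-B inhibitor alpha-like gene (Mve09G000450), at 407 CPM at 2 mg/L, 388 CPM at 4 mg/L and 67.8 CPM at 7.5 mg/L. At 4 against 7.5 mg/L 180 rose and 154 fell, and 56 (10.6%) had a larger log2 fold change than AOX, against 15.7% of all other tested genes. At 2 against 4 mg/L 105 rose and 196 fell, and 34 (6.46%) had a larger one, against 14.1% of all other tested genes.

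Being higher at each step down in oxygen was itself infrequent. Over all tested genes 768 (4.99%) were called higher at 2 against 7.5, at 4 against 7.5 and at 2 against 4 mg/L, AOX among them. Among the mitochondrion-annotated genes other than AOX the count was 17 of 526 (3.23%). In 132 of the 768 each step, 4 against 7.5 and 2 against 4 mg/L, was at least 2-fold with TMM scaling. AOX is 1 of these 132, although its step between 2 and 4 mg/L, 2.015-fold here, lies close to that limit. Under total-count scaling the step is 1.84-fold, and with no filter it is 1.995-fold. Without replicate 3 at 2 mg/L it is 1.98-fold, and without replicate 2 at 4 mg/L 1.93-fold. Limma on log2(FPKM + 0.1) and log2(FPKM + 1) gives 1.837-fold and 1.826-fold. A description other than uncharacterized was given for 48 of the 132. By mean FPKM AOX was the third highest of these 48, after a cytosolic phosphoenolpyruvate carboxykinase (PEPCK, Mve06G010350) and a Bcl-2 like 1 protein (Mve12G003320). Among all 132, 8 genes, AOX included, had a mean FPKM at or above that of AOX.

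Unlike AOX, HIF-1alpha was highest at 4 mg/L. HIF-1alpha (Mve02G016380), the oxygen-regulated transcription factor subunit, was at 196 CPM at 2 mg/L, 253 CPM at 4 mg/L and 93.1 CPM at 7.5 mg/L. It rose in both hypoxic groups relative to 7.5 mg/L (log2 1.07 at 2 mg/L and 1.44 at 4 mg/L) and was lower at 2 than at 4 mg/L (-0.37, edgeR adjusted p = 4.83e-06). The EGLN1-like prolyl hydroxylase (Mve02G014470), of the family that marks HIF-alpha for breakdown, was at 69.2 CPM at 2 mg/L, 64.7 CPM at 4 mg/L and 27.6 CPM at 7.5 mg/L, and the difference between 2 and 4 mg/L did not pass the test (0.10, edgeR adjusted p = 0.246). The HIF partner ARNT (Mve10G004750) was at 50.7 CPM at 2 mg/L, 52.7 CPM at 4 mg/L and 37.4 CPM at 7.5 mg/L. All 3 tested genes of oxygen sensing, of 4 matched, rose at 2 against 7.5 mg/L and at 4 against 7.5 mg/L, and 1 fell and 2 did not pass at 2 against 4 mg/L. PEPCK (Mve06G010350), which joins glycolysis to the succinate pathway that molluscs use without oxygen, did step with AOX and on a larger scale, at 11502 CPM at 2 mg/L, 5001 CPM at 4 mg/L and 268 CPM at 7.5 mg/L. The anaerobic carbon metabolism list around it had 9 risen, 6 fallen and 5 not passing of 20 tested at 2 against 7.5 mg/L, 12, 4 and 4 at 4 against 7.5 mg/L, and 7, 8 and 5 at 2 against 4 mg/L. Octopine dehydrogenase (Mve03G010050), which regenerates NAD without oxygen, had the largest fall of that list at 2 against 7.5 mg/L (-1.97).

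The genes whose profile was most like that of AOX lay outside respiration. Likeness was the root mean square difference in log2(CPM + 0.5) over the 9 libraries, each gene centred on its own mean at 7.5 mg/L, and 9757 tested genes with an informative description were ranked. Only 10 of them lay within 0.2 log2 units of AOX and 45 within 0.3. The nearest was an immediate early response gene 5-like protein (IER5-like, Mve14G006460), of a family of quickly induced genes, at 136 FPKM at 2 mg/L, 76.0 FPKM at 4 mg/L and 33.4 FPKM at 7.5 mg/L, against AOX means of 125, 68.2 and 31.6 FPKM. Its distance was 0.0943 log2 units, and Pearson's r with AOX over the 9 libraries was 0.996, a value that mostly reflects the 3 group means. Next came the integrin beta-like gene (Mve02G003930), which is in the haemocyte list by its description alone, at a distance of 0.116. An interleukin 17-like cytokine (Mve11G002500) was at 0.127. Fos-related antigen 1-like (Mve02G005320), an AP-1 transcription factor subunit, stood at 0.139, a centrosomal protein of 290 kDa-like gene (CEP290-like, Mve13G006990), a cilia protein, at 0.150, and a t-SNARE domain-containing protein 1-like gene (Mve16G008200) at 0.161. Bcl-2-like protein 2 (Mve12G000560) and Bcl-2 like 1 (Mve12G003320), of the family that governs mitochondrial release of cytochrome c, followed at 0.163 and 0.175. All 8 were called higher in each of the 3 comparisons, which the choice by likeness largely fixes. The CEP290-like gene is weakly expressed, at 2.13 FPKM at 2 mg/L, 1.22 FPKM at 4 mg/L and 0.378 FPKM at 7.5 mg/L, while the other 7 had means over all libraries from 14.8 to 709.5 FPKM. Its fitted log2 fold changes were 2.64 at 2 against 7.5 mg/L, 1.70 at 4 against 7.5 mg/L and 0.94 at 2 against 4 mg/L, against 2.18, 1.17 and 1.01 for AOX. At its level of 0.760 CPM at 7.5 mg/L the added 0.5 CPM narrows its distance from AOX.

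**Figure D4:**
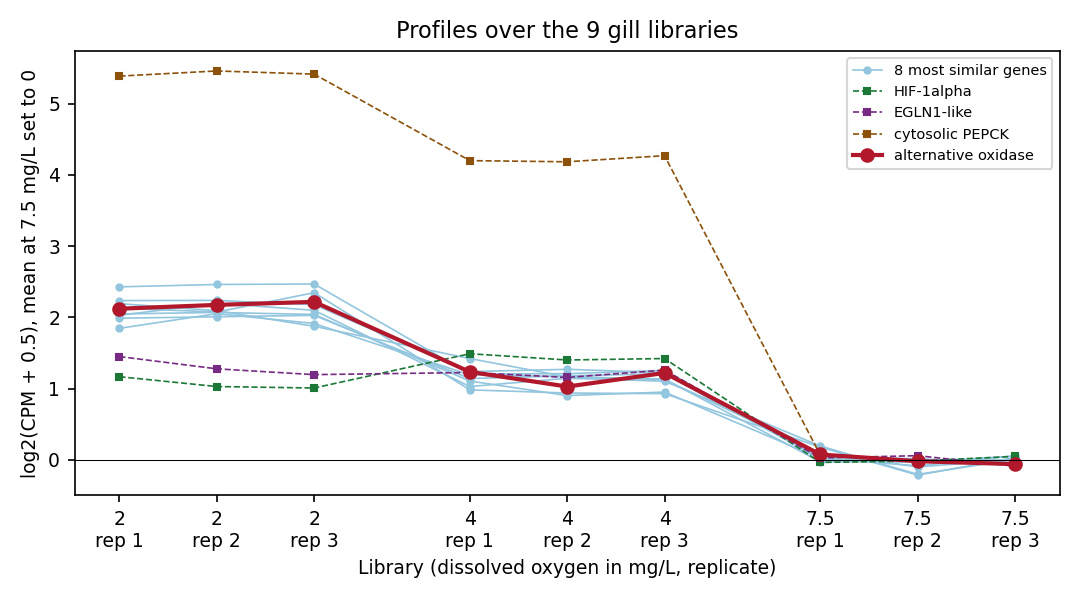
Level of AOX, of the 8 genes with the most similar profile and of HIF-1alpha, EGLN1-like and PEPCK in each library, as log2(CPM + 0.5) with the mean at 7.5 mg/L set to 0; lines only join the points of a gene. AOX and the 8 similar genes are highest at 2 mg/L, lower at 4 mg/L and lowest at 7.5 mg/L, HIF-1alpha is highest at 4 mg/L, and PEPCK lies far above all of them in both hypoxic groups.

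None of the tested genes around AOX on chromosome 7 rose as much as AOX at 2 or at 4 against 7.5 mg/L. Of all other tested genes, 4.57% and 15.7% had a larger log2 fold change than AOX in these comparisons. At 2 against 4 mg/L 3 of the neighbours had a larger one, against 14.1% of all other tested genes. Of the 5 genes on each side 8 were tested, and none of the 10 overlaps AOX. The nearest, 2235 bp beyond its end and on the opposite strand, is the ankyrin repeat and KH domain protein mask (Mve07G002210), with log2 fold changes of 0.26 at 2 against 7.5 mg/L (did not pass), 0.38 at 4 against 7.5 mg/L (rose) and -0.12 at 2 against 4 mg/L (did not pass). On the other side, 10.7 kb before its start, an AUGMIN subunit 5-like gene (Mve07G002190) gave 0.36 (did not pass), -0.98 (fell) and 1.34 (rose) in the same comparisons. The largest neighbouring value at 2 against 7.5 mg/L was 0.78, for a serine/threonine-protein kinase 11-interacting protein-like gene (Mve07G002170), which also rose at 2 against 4 mg/L (1.16). One neighbour, leucine zipper transcription factor-like protein 1 (Mve07G002230), was called higher in all 3 comparisons, at 0.66, 0.29 and 0.37. Ribonuclease P protein subunit p14 (Mve07G002180) and an eIF4B-like translation factor (Mve07G002240) did not pass in any. An uncharacterized gene 4 places before AOX (Mve07G002160) fell at 4 against 7.5 mg/L (-2.66) and rose at 2 against 4 mg/L (2.38) at levels of 5.20 CPM at 2 mg/L, 0.993 CPM at 4 mg/L and 6.28 CPM at 7.5 mg/L. One 5 places after it (Mve07G002250) had values of 0.32, -0.12 and 0.45 and was called in each comparison, at 4 against 7.5 mg/L not without control replicate 1.

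**Figure D5:**
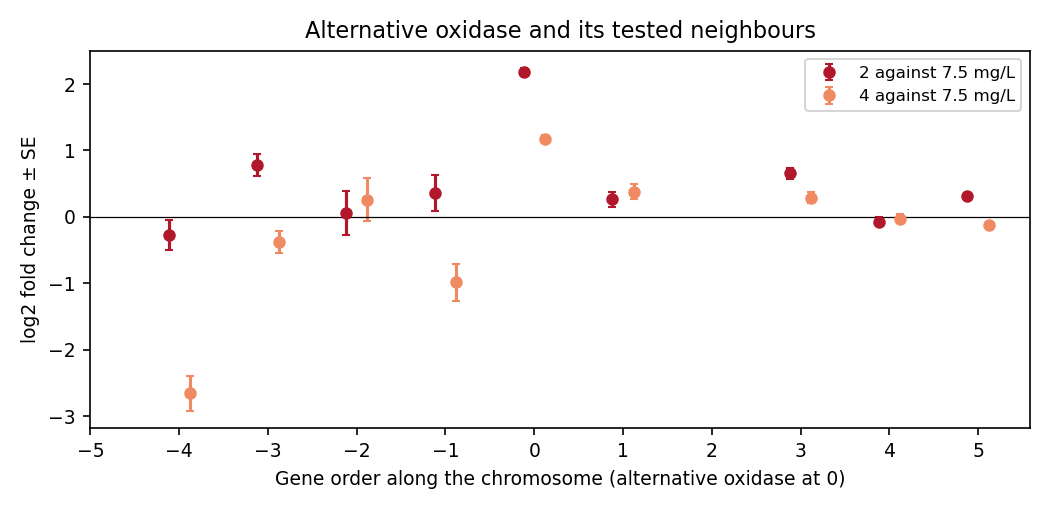
Log2 fold change ± SE of AOX (position 0) and of its 8 tested neighbours in gene order along chromosome 7, for 2 against 7.5 mg/L (red) and 4 against 7.5 mg/L (orange). AOX stands at 2.18 and 1.17, and the highest neighbour at 2 against 7.5 mg/L is at 0.78.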

How the data were processed

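Gill libraries from 3 oxygen levels were compared. The deposited table holds whole-number counts per gene with no normalization and FPKM, scaled for length and mapped fragments, per the file headers. The submitters' processing notes name cutadapt 1.9, HISAT2 2.2.1, StringTie 2.1.6, DESeq2 and edgeR; strand use in counting and genome build are not given in the sources used here. Deposited counts of the 15397 genes whose mean FPKM was 1 or more went into edgeR 4.0.16 under R 4.3.3 (quasi-likelihood test, TMM scaling, all 9 libraries, no covariate), and p-values were adjusted by Benjamini-Hochberg over these genes. SE was derived from the log2 fold change and its F statistic. The script was tested on simulated data. Alternatives were total-count and DESeq2 scaling, DESeq2 1.42.0, limma 3.58.1 on log2(FPKM + 1) and log2(FPKM + 0.1), no filter, a filter of 5 FPKM, a replicate block, only the 6 libraries compared, and each library left out. Pathway and marker lists are word patterns on the gene descriptions; the lists for oxidative stress and the mitochondrion, by annotation term, were added after the table was seen. Members and lists were chosen with earlier results of these data known. Besides AOX, named genes were the 8 most alike, 5 neighbours on each side, from each list all members if 4 or fewer were tested and otherwise the largest rise, the largest fall (2 against 7.5 mg/L) and the most abundant, and HIF-1alpha, EGLN1-like and the highest PEPCK. Some list members are given only in counts, marker lists only in sums and counts. The electron transfer flavoprotein oxidoreductase, subunit 6 of complex III, the less abundant subunit I entry of complex IV, the NF-kappa-B inhibitor and the genes of the closing observations were named after their values were seen. Levels rest on 26994566 to 32246147 counts a library.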

Additional observations from a re-analysis of the deposited data

How the results depend on the processing

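AOX kept its direction and its call in all 3 comparisons under each of 18 alternatives. Its log2 fold change ranged from 1.95 to 2.22 at 2 against 7.5 mg/L, from 1.08 to 1.24 at 4 against 7.5 mg/L and from 0.87 to 1.06 at 2 against 4 mg/L, with the largest adjusted p at 1.57e-09, 7.13e-08 and 4.93e-07. With each library left out in turn the ranges were 2.15 to 2.22, 1.13 to 1.24 and 0.95 to 1.06. The labels do not say whether replicate numbers pair libraries. No pair with the same number had a correlation of deviations above 0.1, which cannot show that libraries were unpaired. With a replicate block AOX stood at 2.18, 1.17 and 1.01, with 9508, 10519 and 9531 genes called.

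With a filter of 5 FPKM, which tests fewer genes, 5975 genes were called at 2 against 7.5 mg/L, 6248 at 4 against 7.5 mg/L and 5923 at 2 against 4 mg/L, against 9771, 10760 and 9813, and calls among the neighbours over the 3 comparisons numbered 7 against 13.

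Directions turned for 8 weakly moved genes under total-count scaling and both limma tests, whose median gene also shifts down. At 2 against 7.5 mg/L complex II genes Mve04G003030, Mve07G004420 and Mve13G008960 became -0.15, -0.19 and -0.16 under total counts (-0.15, -0.19 and -0.15 with limma), the Rieske subunit Mve06G013720 -0.13 (-0.13 and -0.12), ATP synthase subunit 9 Mve07G010530 -0.027 (-0.022) and the complex I 75 kDa subunit Mve12G002990 -0.0070 (-0.0047 and -0.0046). At 2 against 4 mg/L Mve06G013720 became -0.11, cytochrome c1 Mve06G015250 -0.12 and cytochrome c oxidase subunit I Mveptg000504l_1G000020 -0.092 (-0.097 with limma). Over all named genes, comparisons and alternatives, 3137 of 3411 values kept direction and call, 131 lost the call, 60 gained one, 56 changed sign with no call and 27 are those just given. PEPCK genes Mve06G010340 and Mve06G010330, given below, are not in these counts. Counts of calls per list and direction moved by over 1.5 times in 205 of 1620 cases. Of the 8 genes most like AOX, 6 to 8 were again among the 8 nearest under each of 15 alternatives. The counts of AOX were high enough that depth limits none of its comparisons, while genes under a few FPKM are less certain.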

Other observations

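Some of the 17 other mitochondrion-annotated genes that were called higher in each of the 3 comparisons, as AOX was, are given here, picked after their values were seen. A 5-aminolevulinate synthase (Mve08G010130), the enzyme that starts haem synthesis, averaged 220 CPM at 2 mg/L, 89.7 CPM at 4 mg/L and 64.5 CPM at 7.5 mg/L. Cysteine desulfurase (Mve06G005460), which supplies sulfur for iron-sulfur clusters, averaged 135 CPM at 2 mg/L, 105 CPM at 4 mg/L and 72.4 CPM at 7.5 mg/L. The alpha subunit of NAD-dependent isocitrate dehydrogenase (Mve10G003070), an enzyme of the tricarboxylic acid cycle, averaged 41.2 CPM at 2 mg/L, 32.6 CPM at 4 mg/L and 21.5 CPM at 7.5 mg/L. A PTC7-like protein phosphatase (Mve11G004140), whose yeast counterpart acts on ubiquinone synthesis, averaged 75.2 CPM at 2 mg/L, 51.0 CPM at 4 mg/L and 26.4 CPM at 7.5 mg/L. The log2 fold changes of these 4 at 2 against 7.5 mg/L were 1.77, 0.90, 0.94 and 1.51 in the same order, where AOX had 2.18. By mean FPKM the highest of the 17 were PEPCK genes Mve06G010340 and Mve06G010330. The former averaged 464 CPM at 2 mg/L, 402 CPM at 4 mg/L and 230 CPM at 7.5 mg/L (1.01 at 2 against 7.5 mg/L). The latter averaged 252 CPM at 2 mg/L, 200 CPM at 4 mg/L and 76.4 CPM at 7.5 mg/L (1.72). Of the 17 genes, 3 had a larger log2 fold change than AOX at 2 against 7.5 mg/L. An ankyrin repeat domain-containing protein 24-like gene (Mve10G010670) averaged 35.3 CPM at 2 mg/L, 17.3 CPM at 4 mg/L and 4.57 CPM at 7.5 mg/L. IRE1 (Mve01G011020), a kinase and endoribonuclease that senses unfolded proteins in the endoplasmic reticulum, averaged 17.8 CPM at 2 mg/L, 12.6 CPM at 4 mg/L and 1.93 CPM at 7.5 mg/L. Its call at 2 against 4 mg/L (log2 fold change 0.50) has an adjusted p = 0.0479 by edgeR and ends under total-count scaling (0.37), with the replicate block, with no filter, in both limma tests, and without any 1 of 5 libraries, all 3 at 2 mg/L and replicates 2 and 3 at 4 mg/L. A putative transposon RNA-directed DNA polymerase (Mve18G006700) averaged 17.4 CPM at 2 mg/L, 1.22 CPM at 4 mg/L and 0.0938 CPM at 7.5 mg/L, the last from 3 counts in each library. Whether any of the genes given here differed from AOX was not tested.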
